A study of Homo sapiens with 12 samples.

Results

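DNA replication and S-phase genes are the set described here. The members were 45 genes chosen by symbol, and 44 of them had a row in the deposited table and were tested, among 16146 genes tested of 18815 rows in all. CHEK1, the checkpoint kinase, was not analysed here. The RNA-seq libraries came from HuH-28, from RBE and from SSP-25, established human lines of intrahepatic cholangiocarcinoma (ICC), a cancer of the bile ducts within the liver, taken 48 h after transfection with an siRNA against LKB1 or a scrambled control siRNA. Each line had 2 libraries with LKB1 siRNA and 2 with control siRNA, so there were 6 groups and 12 libraries. HuH-28 was grown in MEM and the other lines in RPMI medium, so for control levels line and medium cannot be told apart. The study numbers the 2 libraries of each group as separate tests, but the labels do not say whether these were separate cultures, so p-values measure the spread between these libraries, which may be technical. The study compared the 2 siRNAs to find which transcripts change when LKB1, a kinase that activates AMPK and acts as a tumour suppressor, is reduced.

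Before each division a cell copies its genome once. In G1 the ORC complex, CDC6 and CDT1 load the MCM helicase onto origins, and in S phase GINS, CDC45 and MCM10 help to switch the helicase on, so that polymerases alpha, delta and epsilon can copy the strands behind it with the PCNA clamp. Most of these genes are transcribed as cells pass from G1 to S phase, when E2F factors are released from the retinoblastoma proteins, and their mRNAs are therefore widely used as a readout of proliferation. In bulk RNA, fewer cells in S phase and less of each mRNA per cell cannot be told apart. The study measured proliferation directly at a later time after transfection and reported an increase with LKB1 siRNA in HuH-28, RBE and SSP-25. How the mRNAs described here relate to that assay was not tested.

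The deposited values are normalized reads per kilobase as made by the authors, called signal below. Reads per gene had been scaled by transcript length and between libraries. Library totals lay between 9909644 and 11726703, and the read depth is unknown. The target gene STK11, which encodes LKB1, followed its labels. Its signal was 223 and 206 with LKB1 siRNA, against 698 and 600.4 with control siRNA in HuH-28. In RBE STK11 had 130.0 and 156 with LKB1 siRNA, against 485 and 429.8 with control siRNA. SSP-25 had 61.8 and 72.8 with LKB1 siRNA, against 464 and 459 with control siRNA. The groups did not overlap in any line, and the log2 differences were -1.59 (SE 0.11, adjusted p = 1.14e-05) in HuH-28, -1.68 (SE 0.11, adjusted p = 3.21e-06) in RBE and, for SSP-25, -2.77 (SE 0.11, adjusted p = 1.75e-07). Rows under a signal of 1e-06, treated as 0, numbered 1057 in 7 libraries and between 2979 and 3403 in the other 5, but no member lay there, since the lowest value of any member was 26.4, of E2F2. Of the biliary and epithelial markers, KRT7, KRT8 and KRT18 had mean signals above 1751 in every group. KRT19 averaged 14.4 and 10.4 in HuH-28 with LKB1 siRNA and control siRNA, where EPCAM averaged 0.491 and 0.956, so these defining markers were nearly absent from that line. The immune marker PTPRC and the endothelial markers PECAM1 and VWF had group means of at most 11.4. CD68, a macrophage marker, averaged between 745 and 1928 over the groups. ACTA2 averaged 2472 with LKB1 siRNA and 1549 with control siRNA in HuH-28, and 626 and 566 in RBE. The connective tissue gene COL1A1 averaged 17604 with LKB1 siRNA and 13356 with control siRNA in HuH-28, and 11145 and 6745 in SSP-25, and DCN averaged 2214 and 2499 in HuH-28.

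Where replication and S-phase genes were called after LKB1 siRNA they were mostly lower. In the fit used here, members called lower made up most of the set in RBE but not in HuH-28 or SSP-25. For SSP-25 this depended on the fit. There 23 of 44 members were lower with the test number as a block within each line, and 23 with that line fitted alone. A member was called when limma's moderated test on log2(signal + 0.5) gave an adjusted p under 0.05 over all genes tested. In HuH-28, 16 of 44 members were lower and 1 was higher, where 15.5% of all genes tested were lower and 14.3% higher. In RBE, 37 members were lower and 0 were higher, where 18.6% of all genes were lower and 22.1% higher. At an unadjusted p under 0.05 the same numbers of members, 37 lower and 0 higher, were found in RBE. In SSP-25, 19 members were lower and 4 higher, where 21.1% of all genes were lower and 21.1% higher. On average over the lines, 33 members were lower and 1 was higher (2 with the test number as a block), where 25.2% of all genes were lower and 27.3% higher. The median log2 difference of the members was -0.19 in HuH-28, -0.47 in RBE and, for SSP-25, -0.16, beside 0.008, 0.013 and 0.018 over all genes tested. The changes were modest in size, and 0 members passed a log2 difference beyond 1 in any line. Among the 16146 genes tested, calls beyond 1 numbered 368 lower and 987 higher for SSP-25. For RBE they numbered 377 and 896, and HuH-28 had 239 and 414. Whether the members differ in this from other genes was not tested. Summed over the members, RBE held 0.382% and 0.374% of its total signal with LKB1 siRNA, against 0.519% and 0.51% with control siRNA. HuH-28 held 0.303% and 0.294% with LKB1 siRNA, against 0.347% and 0.338% with control siRNA, and SSP-25 held 0.309% and 0.313%, against 0.335% and 0.332%. The sums did not overlap between siRNAs in any line. With 2 libraries against 2, a two-sided exact permutation test cannot give a p below 0.333, so single values carry no exact test here. Without SSP-25 LKB1 siRNA replicate 1, 12 members were lower in SSP-25.

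**Figure D1:**
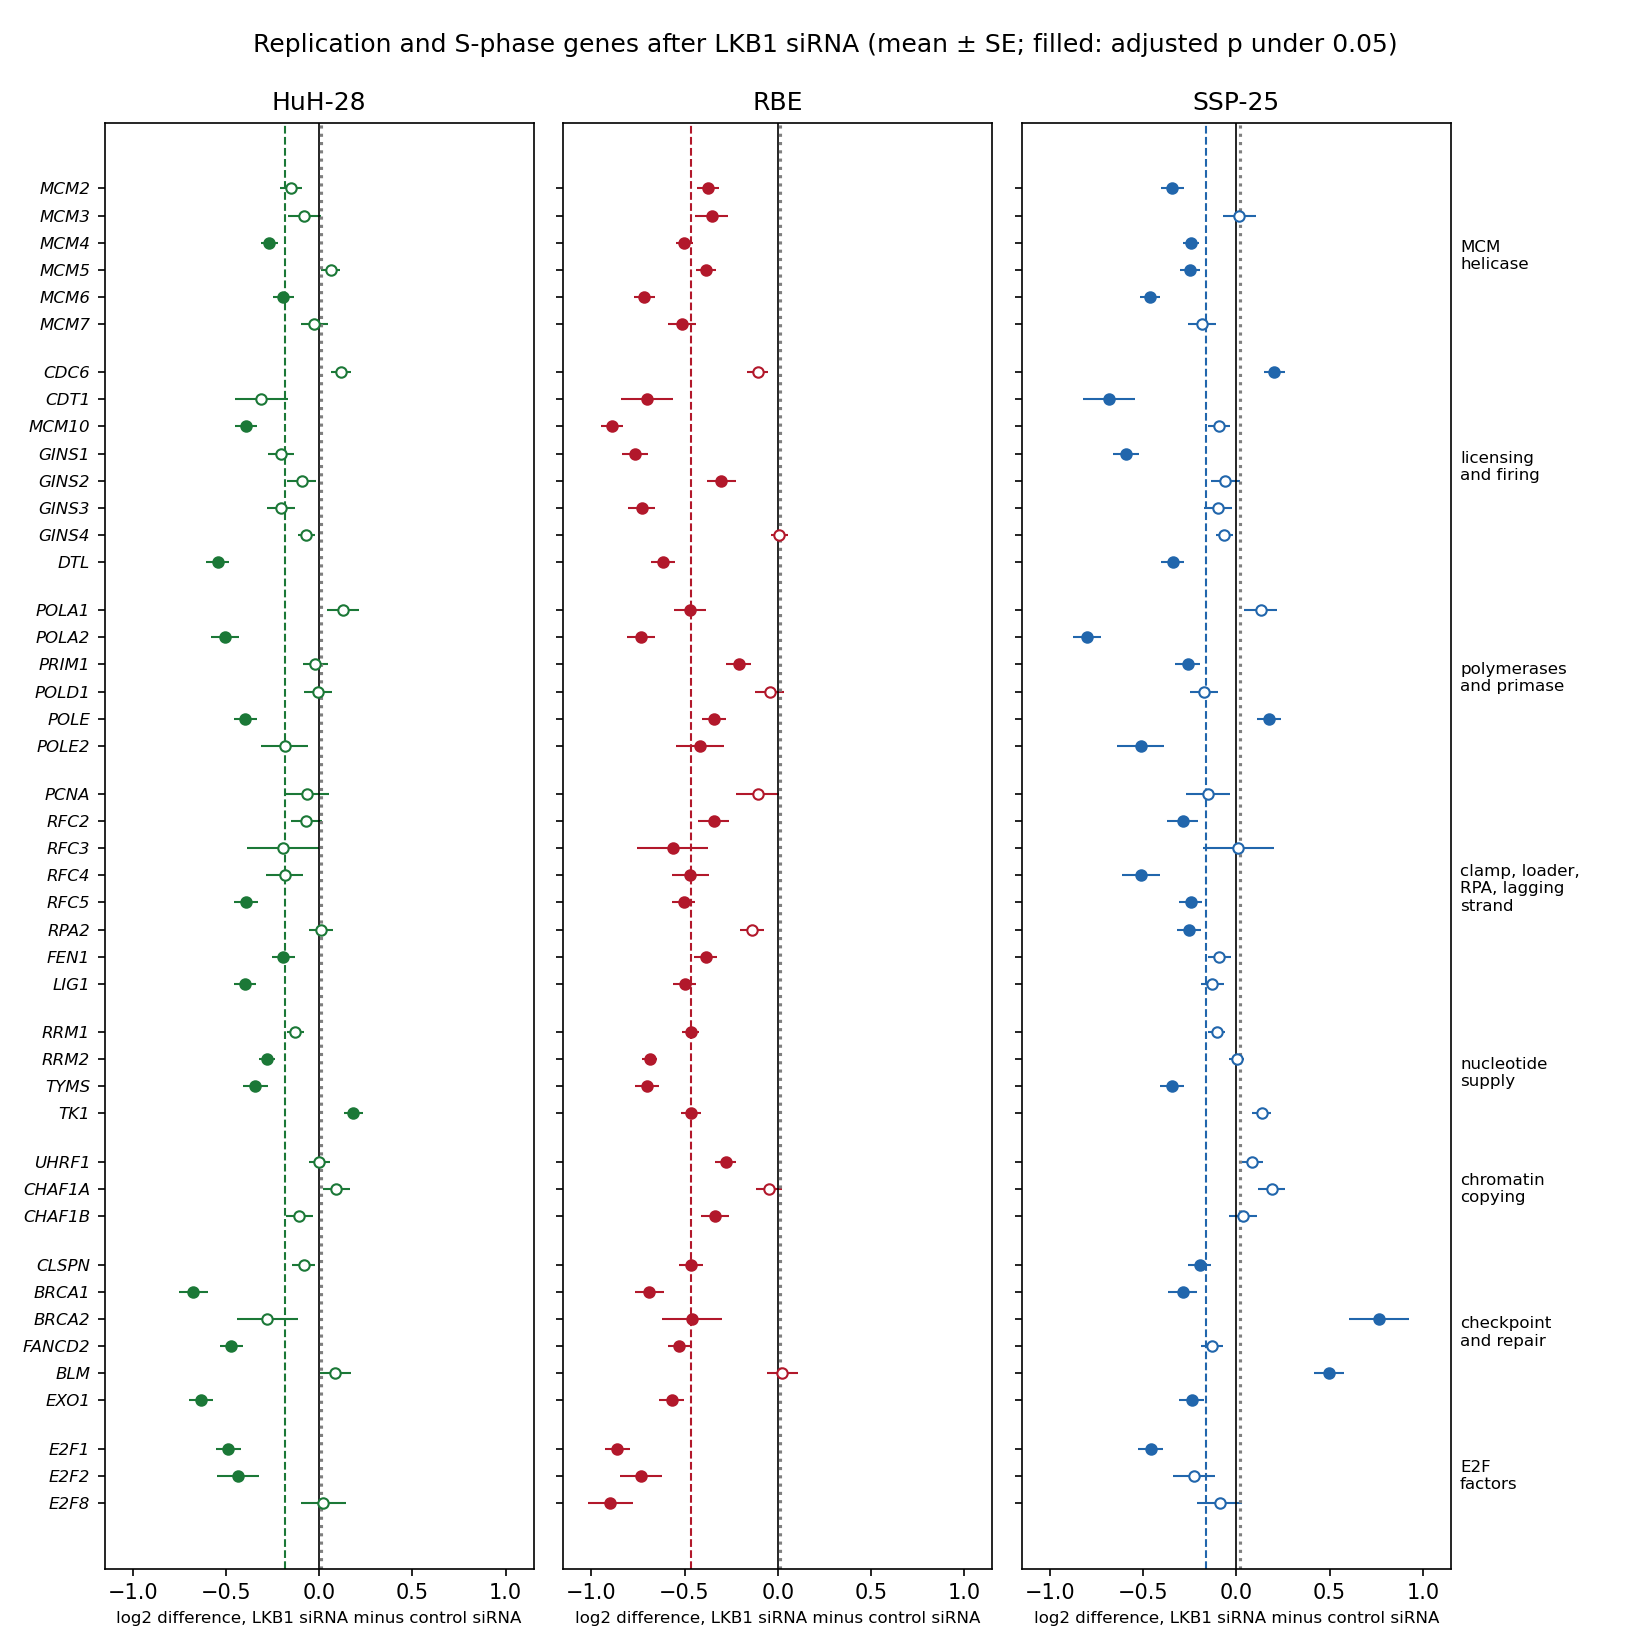
Log2 difference of each of the 44 members (x axis, LKB1 siRNA minus control siRNA, in log2 units) for the lines HuH-28, RBE and SSP-25, with members down the page grouped by role. Points are limma estimates with their SE, filled where the adjusted p was under 0.05; the dashed line is the median of the members and the dotted line that of all genes tested. In RBE 37 points are filled and all of those lie left of 0.

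By test, 9 members were lower in all 3 lines, namely MCM4, MCM6, DTL, POLA2, RFC5, TYMS, BRCA1, EXO1 and E2F1. Of all genes tested, 7.44% were lower in all 3 lines. No member was higher in all 3 lines, beside 6.94% of all genes. With each line fitted alone, the HuH-28 calls of MCM4 (adjusted p = 0.0722), MCM6 (0.168) and TYMS (0.0705) were lost, and with quantile normalization the SSP-25 calls of RFC5 (0.0604) and EXO1 (0.0532). Lower in RBE and called in neither other line were 10 members, a pattern of 4.22% of all genes. The lowest of the log2 differences lay in RBE for 34 members, beside 30.3% of all genes. POLE, TK1 and BRCA2 were called in opposite directions in 2 lines, beside 3.7% of all genes, and 4 members (GINS4, POLD1, PCNA and CHAF1A) were called in none, beside 37.3%. A fit with the test number as a block within each line, the replicate block, kept each call and added some, which are given with the genes. Across the 44 members, which share the libraries of a line, Pearson's r between log2 differences was 0.59 for HuH-28 and RBE, 0.39 for HuH-28 and SSP-25 and 0.44 for RBE and SSP-25, given as a description only.

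**Figure D2:**
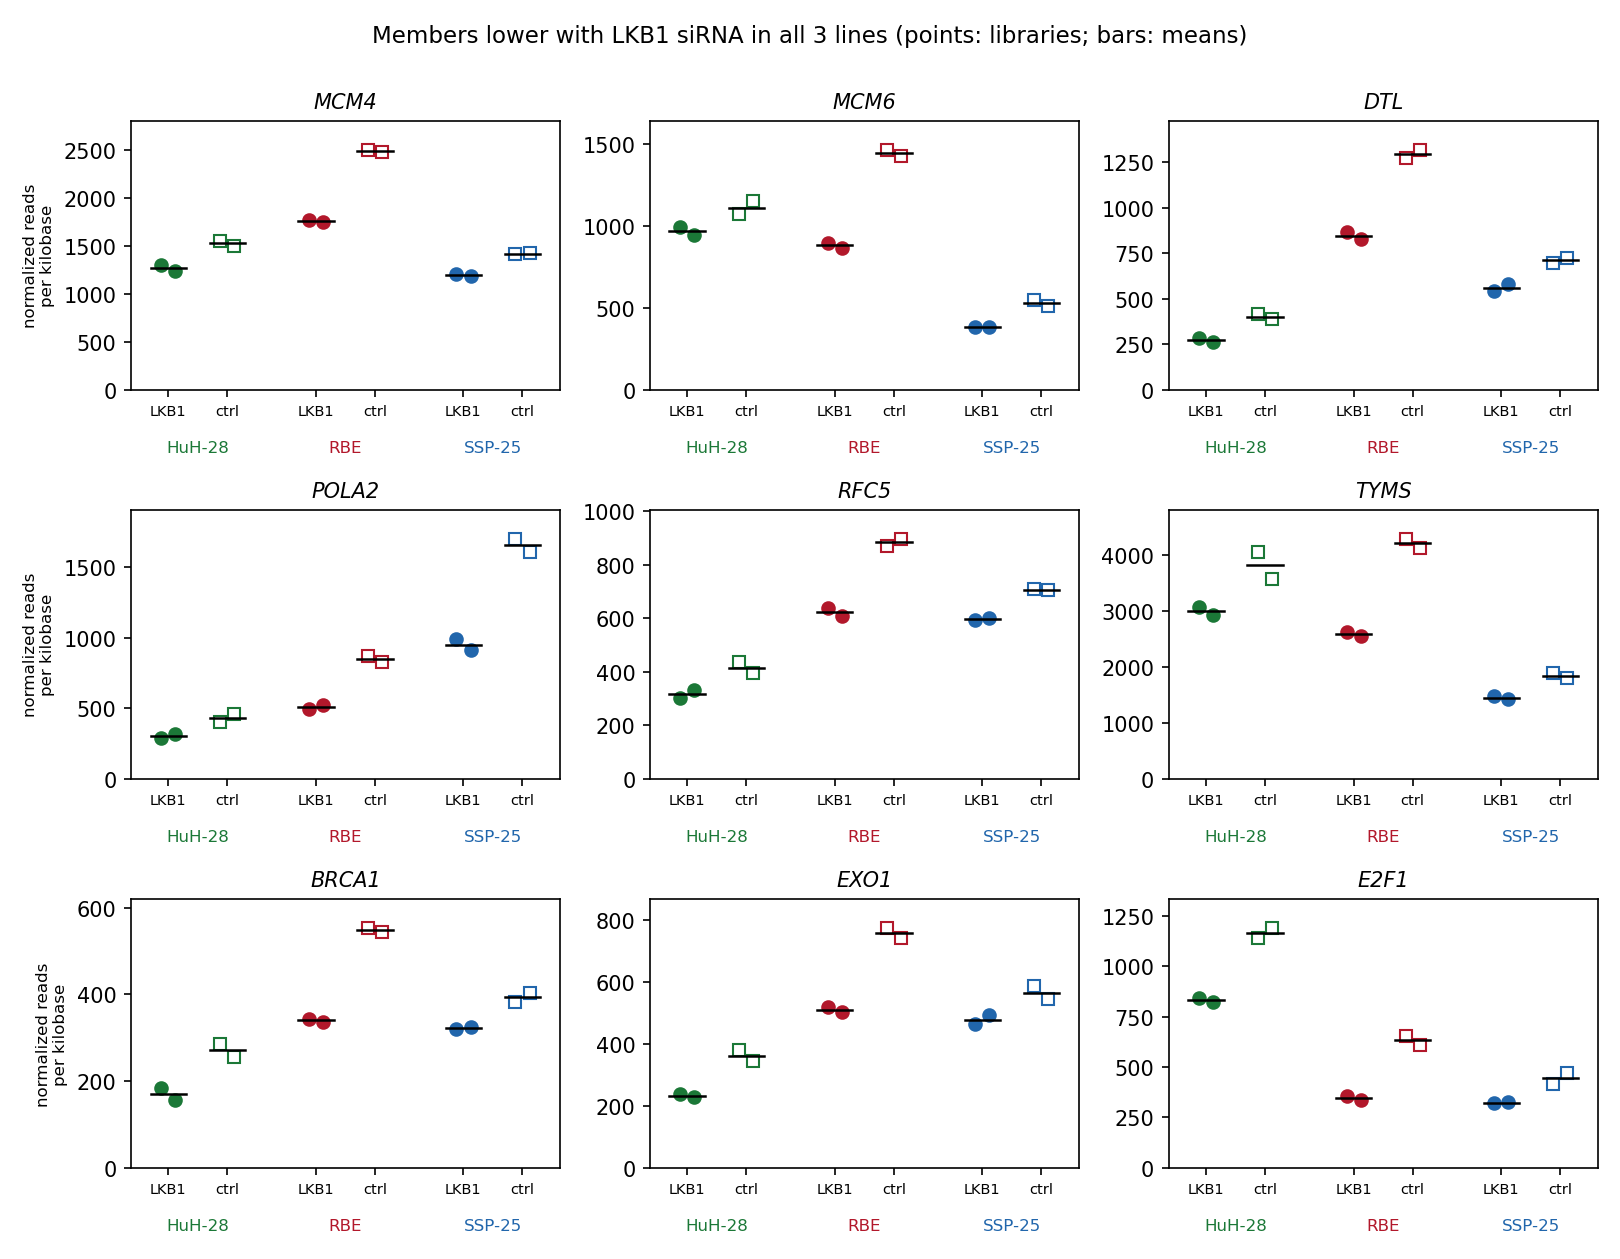
Signal (y axis, normalized reads per kilobase, from 0) of the 9 members lower in all 3 lines, in every library. Filled circles are LKB1 siRNA, open squares control siRNA to their right, and bars are means of 2 libraries; in every line both LKB1 siRNA libraries lie below both control libraries.

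Promoters of the members often held a sequence word that E2F factors are known to bind. The words searched on both strands were TTTCCCGC, TTTGGCGC, TTTCGCGC and TTTGCCGC, in RefSeq windows of GRCh38.p14 from 250 bases before to 50 after the start, and hits on opposite strands can overlap. A window was found for 39 of the 44 members. Of these 24 held a word (61.54%), beside 687 of 11733 tested genes with a window (5.86%). With words starting between 60 bases before and 20 after the start, a span chosen after their positions were seen, 21 members (53.85%) held one, beside 1.87% of genes. CCAAT, the NF-Y word, was in 22 members (56.41%), beside 42.94% of genes. Members that held an E2F word had a median log2 difference of -0.20 in HuH-28, -0.52 in RBE and, for SSP-25, -0.19, and the 15 members that lacked one had -0.13, -0.46 and -0.092. Both sets of members had negative medians in every line. The 687 genes with a word, which include these 24 members, had medians of -0.046, -0.048 and -0.031. The 11046 genes with a window but no word had 0.006, 0.021 and 0.017. A part of the word in the changes was not tested. A match describes letters in a window and shows no binding.

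The stretches from 60 bases before to 20 after the start are shown for members given by library that held an E2F word there, in capitals. These are DTL, POLA2, TYMS, EXO1 and E2F1 of the members lower in all 3 lines. POLE, which moved in opposite directions, and CDT1, lower in RBE and SSP-25, are shown as well. RFC5 and BRCA1, also lower in all 3 lines, held no word in their windows. MCM6 held words only further before the start, and no window was found for MCM4. DTL lies at chr1:212035688-212035767, forward strand, POLA2 at chr11:65261902-65261981, forward strand, TYMS at chr18:657593-657672, forward strand, EXO1 at chr1:241848144-241848223, forward strand, E2F1 at chr20:33686366-33686445, reverse strand, POLE at chr12:132687323-132687402, reverse strand and CDT1 at chr16:88803729-88803808, forward strand.
DTL: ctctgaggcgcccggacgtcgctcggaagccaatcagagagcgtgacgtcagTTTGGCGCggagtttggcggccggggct
POLA2: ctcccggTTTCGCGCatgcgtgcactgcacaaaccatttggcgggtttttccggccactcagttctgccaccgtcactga
TYMS: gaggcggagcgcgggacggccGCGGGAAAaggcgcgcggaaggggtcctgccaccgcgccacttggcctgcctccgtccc
EXO1: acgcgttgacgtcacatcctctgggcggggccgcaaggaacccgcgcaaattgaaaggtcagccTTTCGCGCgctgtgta
E2F1: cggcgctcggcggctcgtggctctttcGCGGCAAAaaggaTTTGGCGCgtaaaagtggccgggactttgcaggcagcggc
POLE: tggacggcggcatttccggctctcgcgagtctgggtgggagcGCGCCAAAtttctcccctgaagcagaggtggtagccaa
CDT1: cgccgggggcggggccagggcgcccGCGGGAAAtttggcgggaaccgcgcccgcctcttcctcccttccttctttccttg
E2F1 carries 2 words within this stretch, and the word of EXO1 lies just after its start. POLE held the same word as DTL, on the other strand.

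**Figure D3:**
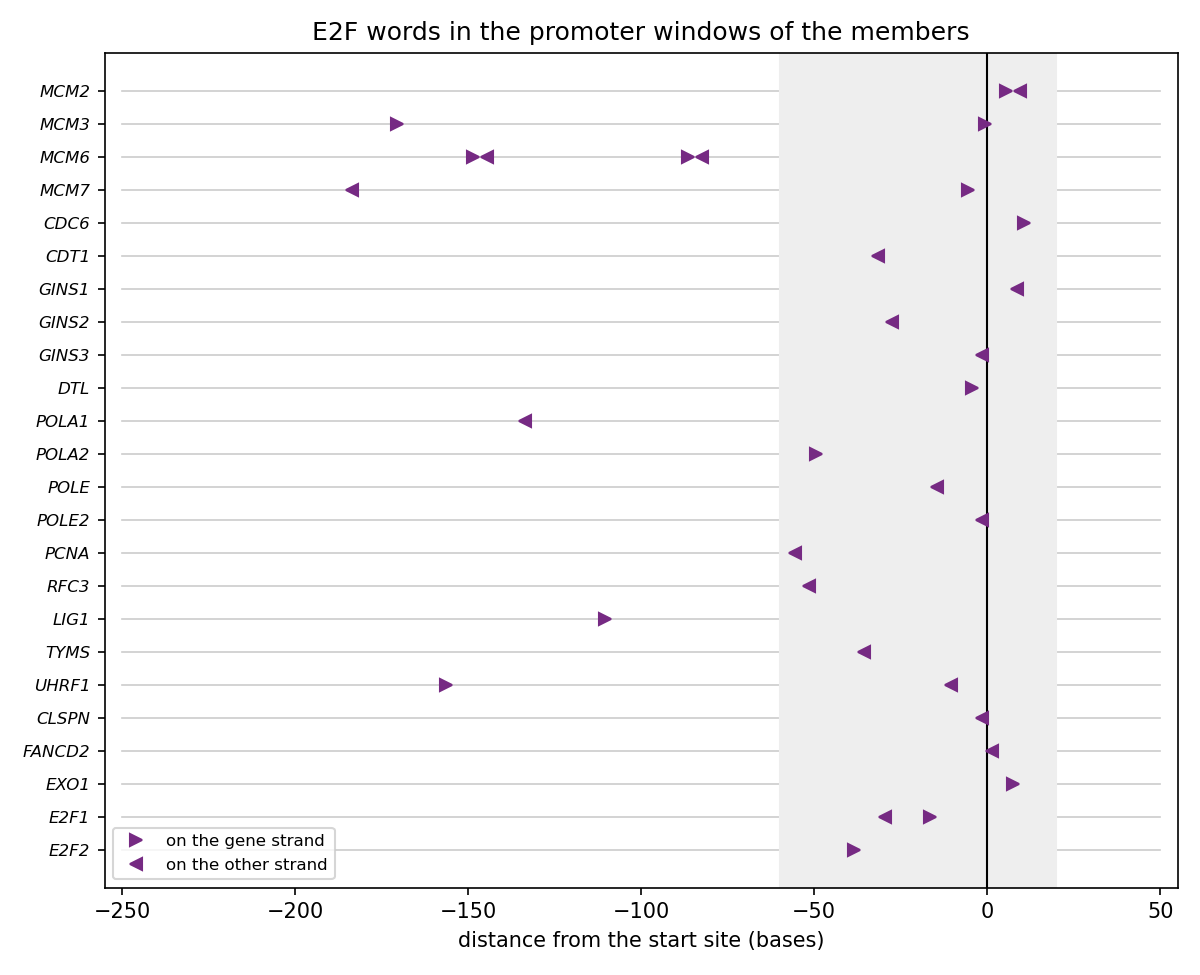
Position of each E2F word (x axis, distance in bases from the start site) in the promoter windows of the 24 members that held one. Right-pointing marks are words on the strand of the gene, left-pointing marks on the other strand, and the grey band spans 60 bases before to 20 after the start, where 21 members have a word.

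The MCM helicase is the ring of MCM2 to MCM7 that unwinds the template. All 6 subunits were lower in RBE, 4 in SSP-25 and 2 in HuH-28. Counts by role, here and below, stand beside the shares over all genes given above for each line. They rest on few genes. MCM4 had 1299.6 and 1240.1 with LKB1 siRNA, against 1553 and 1502 with control siRNA in HuH-28. In RBE it had 1771 and 1747 with LKB1 siRNA, against 2503 and 2475 with control siRNA. SSP-25 gave 1211 and 1188 with LKB1 siRNA, against 1413 and 1422 with control siRNA. The groups were apart in each line, and the log2 differences were -0.27 (SE 0.044, adjusted p = 0.00147), -0.50 (SE 0.044, adjusted p = 1.49e-05) and -0.24 (SE 0.044, adjusted p = 0.00156) for the lines HuH-28, RBE and SSP-25. MCM6 had 995 and 947 with LKB1 siRNA, against 1071 and 1148 with control siRNA in HuH-28. Its RBE signal was 895 and 867 with LKB1 siRNA, against 1465 and 1428 with control siRNA. Its SSP-25 signal was 381 and 384 with LKB1 siRNA, against 544 and 509 with control siRNA. MCM6 again did not overlap between siRNAs, with differences of -0.19 (SE 0.054, adjusted p = 0.024) in HuH-28, -0.72 (SE 0.054, adjusted p = 6.34e-06) in RBE and, for SSP-25, -0.46 (SE 0.054, adjusted p = 0.000102). The HuH-28 call of MCM6 was lost without LKB1 siRNA replicate 2 (adjusted p = 0.104) or control siRNA replicate 2 (adjusted p = 0.128) of that line. MCM2 (-0.37 in RBE, -0.34 in SSP-25) and MCM5 (-0.38 and -0.25) were lower in these lines and not called in HuH-28, where they measured -0.15 and 0.06. With quantile normalization MCM2 was called lower in HuH-28 (-0.18, adjusted p = 0.0303). MCM3 (-0.35) and MCM7 (-0.51) were lower in RBE alone, with 0.02 and -0.18 in SSP-25, where the replicate block called MCM7 lower (adjusted p = 0.00925). MCM7 was also called lower with SSP-25 fitted alone (adjusted p = 0.005).

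Licensing and firing factors moved unevenly. In RBE 6 of these 8 members were lower, in SSP-25 3 were lower and 1 higher, and in HuH-28 2 were lower. DTL, the receptor of the ubiquitin ligase that removes CDT1 in S phase, had 287 and 264 with LKB1 siRNA, against 417 and 387 with control siRNA in HuH-28. In RBE, DTL had 866 and 827 with LKB1 siRNA, against 1272 and 1321 with control siRNA. In SSP-25 it had 542 and 579 with LKB1 siRNA, against 698 and 724 with control siRNA. DTL did not overlap between siRNAs anywhere and differed by -0.55 (SE 0.062, adjusted p = 0.000182) in HuH-28, -0.62 (SE 0.062, adjusted p = 3.92e-05) in RBE and, for SSP-25, -0.34 (SE 0.062, adjusted p = 0.00161). CDT1 itself, which loads the helicase, had 385 and 306 with LKB1 siRNA, against 496 and 364 with control siRNA in HuH-28. For RBE the CDT1 signal was 395 and 393 with LKB1 siRNA, against 664 and 618 with control siRNA. For SSP-25 it was 240.2 and 269.8 with LKB1 siRNA, against 416 and 402 with control siRNA. The CDT1 groups overlapped in HuH-28 and were apart in the others, with differences of -0.31 (SE 0.14, adjusted p = 0.131) in HuH-28, -0.70 (SE 0.14, adjusted p = 0.00293) in RBE and, for SSP-25, -0.68 (SE 0.14, adjusted p = 0.00329). The HuH-28 difference of CDT1 was called without LKB1 siRNA replicate 1 (-0.48, adjusted p = 0.0482) or control siRNA replicate 2 (-0.53, adjusted p = 0.0152), and with the replicate block (adjusted p = 0.00942).

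MCM10, which binds the active helicase, had 156 and 156 with LKB1 siRNA, against 209 and 201 with control siRNA in HuH-28. It had 291 and 293 with LKB1 siRNA, against 542 and 541 with control siRNA in RBE. The signal was 343 and 378 with LKB1 siRNA, against 372 and 396 with control siRNA in SSP-25. The groups overlapped in SSP-25 only, and MCM10 differed by -0.39 (SE 0.061, adjusted p = 0.00105), -0.89 (SE 0.061, adjusted p = 3.14e-06) and -0.09 (SE 0.061, adjusted p = 0.258) for the lines HuH-28, RBE and SSP-25. Of the GINS complex, GINS1 was lower in RBE (-0.77) and SSP-25 (-0.59), and GINS2 (-0.30) and GINS3 (-0.73) in RBE. With the replicate block GINS3 was also lower in HuH-28 (-0.20, adjusted p = 0.0223). GINS4, also of the GINS complex, had 1003 and 952 with LKB1 siRNA, against 978 and 965 with control siRNA in RBE. These overlapped, and GINS4 was called in no line, at -0.07 (SE 0.047, adjusted p = 0.321) in HuH-28, 0.01 (SE 0.047, adjusted p = 0.932) in RBE and, for SSP-25, -0.06 (SE 0.047, adjusted p = 0.304). CDC6, the loading ATPase, was higher in SSP-25 at 0.20 (SE 0.055, adjusted p = 0.0141) and measured 0.12 in HuH-28 and -0.11 in RBE without a call.

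Of the 6 polymerase and primase genes, 5 were lower in RBE, 3 were lower and 1 higher in SSP-25, and 2 were lower in HuH-28. POLA2, the second subunit of polymerase alpha, had 290.4 and 318 with LKB1 siRNA, against 405 and 459 with control siRNA in HuH-28. RBE had 498 and 526 with LKB1 siRNA, against 873 and 828 with control siRNA. SSP-25 had 989 and 916 with LKB1 siRNA, against 1705 and 1609 with control siRNA. No groups overlapped, and POLA2 differed by -0.50 (SE 0.076, adjusted p = 0.000889) in HuH-28, -0.73 (SE 0.076, adjusted p = 4.46e-05) in RBE and, for SSP-25, -0.80 (SE 0.076, adjusted p = 2.52e-05). Its partner POLA1, the catalytic subunit, had 536 and 468 with LKB1 siRNA, against 487 and 433 with control siRNA in HuH-28. It had 95.4 and 94.6 with LKB1 siRNA, against 131 and 133 with control siRNA in RBE. It had 296 and 337 with LKB1 siRNA, against 289.8 and 287 with control siRNA in SSP-25. POLA1 was lower in RBE alone, at -0.47 (SE 0.087, adjusted p = 0.00181), and measured 0.13 (adjusted p = 0.321) in HuH-28 and 0.13 (adjusted p = 0.268) in SSP-25.

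POLE, the leading-strand polymerase, had 229 and 218 with LKB1 siRNA, against 288 and 299.8 with control siRNA in HuH-28. The RBE values were 335 and 334 with LKB1 siRNA, against 425 and 423 with control siRNA. The SSP-25 values were 259.9 and 289.5 with LKB1 siRNA, against 243 and 243 with control siRNA. POLE was thus below its controls in HuH-28 (-0.40, SE 0.062, adjusted p = 0.00111) and RBE (-0.34, SE 0.062, adjusted p = 0.00157) and above them in SSP-25 (0.18, SE 0.062, adjusted p = 0.0443). The SSP-25 call was lost in 7 fits that left out 1 library. Its adjusted p was 0.313 without SSP-25 LKB1 siRNA replicate 2, 0.131 and 0.134 without SSP-25 control siRNA replicates 1 and 2, and 0.0643 to 0.0647 without any 1 of the 4 RBE libraries. POLE2, an accessory subunit, was lower in RBE (-0.42) and SSP-25 (-0.51), as was PRIM1, the small primase subunit (-0.21 and -0.26). POLD1, the lagging-strand polymerase, was called in no line, with values of -0.01, -0.04 and -0.17 for the lines HuH-28, RBE and SSP-25. With the replicate block (adjusted p = 0.0434) or SSP-25 fitted alone (adjusted p = 0.0396), it was lower in SSP-25.

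Clamp, clamp loader, RPA and lagging-strand factors were lower in 6 of 8 cases in RBE, 4 in SSP-25 and 3 in HuH-28. RFC5, a subunit of the loader that places PCNA on DNA, had 302 and 331 with LKB1 siRNA, against 437 and 394 with control siRNA in HuH-28. RFC5 had 637 and 610.0 with LKB1 siRNA, against 872 and 898 with control siRNA in RBE. RFC5 had 593 and 602 with LKB1 siRNA, against 711 and 705 with control siRNA in SSP-25. The siRNA groups were apart in each line, with differences of -0.39 (SE 0.063, adjusted p = 0.00129) in HuH-28, -0.50 (SE 0.063, adjusted p = 0.000147) in RBE and, for SSP-25, -0.24 (SE 0.063, adjusted p = 0.0106). The SSP-25 call of RFC5 was lost without LKB1 siRNA replicate 1 (adjusted p = 0.0591) or control siRNA replicate 1 (adjusted p = 0.0552) of that line. LIG1, the ligase that joins Okazaki fragments, had 277 and 266 with LKB1 siRNA, against 363 and 353 with control siRNA in HuH-28. For LIG1 in RBE the signal was 487 and 452 with LKB1 siRNA, against 687 and 640.1 with control siRNA. In SSP-25 LIG1 had 214 and 222 with LKB1 siRNA, against 233 and 245 with control siRNA. LIG1 was lower in HuH-28 (-0.40, SE 0.061, adjusted p = 0.00102) and RBE (-0.50, SE 0.061, adjusted p = 0.000132) and measured -0.13 (SE 0.061, adjusted p = 0.122) in SSP-25, or adjusted p = 0.0337 with the replicate block. PCNA, the clamp and the most abundant member, was called in no line, at -0.07 (95% interval -0.33 to 0.20) in HuH-28, -0.11 (-0.37 to 0.15) in RBE and -0.15 (-0.41 to 0.11) in SSP-25. With the replicate block (adjusted p = 0.0212) or SSP-25 fitted alone (adjusted p = 0.0163), PCNA was lower in SSP-25. Of the others, FEN1, the flap nuclease, was lower in HuH-28 (-0.19) and RBE (-0.39), the loader subunits RFC2 and RFC4 in RBE (-0.34 and -0.47) and SSP-25 (-0.29 and -0.51), RFC3 in RBE (-0.56), and RPA2, of the single-strand binding protein, in SSP-25 (-0.25). The replicate block added RFC3 in HuH-28 (-0.19, adjusted p = 0.0361) and RPA2 in RBE (-0.14, adjusted p = 0.0435).

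All 4 genes of nucleotide supply were lower in RBE, beside 2 in HuH-28 and 1 in SSP-25. The 1 in SSP-25 lay near the 21.1% of all genes lower there. TYMS, which makes dTMP, had 3076 and 2941 with LKB1 siRNA, against 4057 and 3582 with control siRNA in HuH-28. TYMS measured 2630.1 and 2560.4 with LKB1 siRNA, against 4301 and 4139.8 with control siRNA in RBE. TYMS measured 1480.5 and 1424 with LKB1 siRNA, against 1895 and 1796 with control siRNA in SSP-25. The groups never overlapped, and TYMS differed by -0.34 (SE 0.065, adjusted p = 0.00333) in HuH-28, -0.70 (SE 0.065, adjusted p = 2.19e-05) in RBE and, for SSP-25, -0.35 (SE 0.065, adjusted p = 0.00193). RRM2, the regulated subunit of ribonucleotide reductase, had 793 and 791 with LKB1 siRNA, against 964 and 959 with control siRNA in HuH-28. In RBE RRM2 had 1017 and 1021 with LKB1 siRNA, against 1626 and 1656 with control siRNA. In SSP-25 RRM2 had 2406 and 2371 with LKB1 siRNA, against 2344 and 2429 with control siRNA. RRM2 was lower in HuH-28 (-0.28, SE 0.041, adjusted p = 0.000744) and RBE (-0.69, SE 0.041, adjusted p = 1.32e-06), while in SSP-25 the groups overlapped and the 95% interval of the difference was -0.09 to 0.09. Its HuH-28 call was lost with that line fitted alone (adjusted p = 0.0547). Its partner RRM1 was lower in RBE (-0.47), and measured -0.13 in HuH-28, called with the replicate block (adjusted p = 0.0365), and -0.10 in SSP-25. RRM1 was also called lower in HuH-28 with quantile normalization (adjusted p = 0.0395) and in SSP-25 with that line fitted alone (0.0486).

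TK1, which salvages thymidine, had 1249 and 1195 with LKB1 siRNA, against 1059.8 and 1091 with control siRNA in HuH-28. Its RBE libraries had 2388 and 2263 with LKB1 siRNA, against 3282 and 3135 with control siRNA. Its SSP-25 libraries had 2207 and 2231 with LKB1 siRNA, against 2079.9 and 1961 with control siRNA. TK1 was higher in HuH-28 (0.18, SE 0.052, adjusted p = 0.0243), lower in RBE (-0.46, SE 0.052, adjusted p = 7.81e-05) and uncalled in SSP-25 (0.14, SE 0.052, adjusted p = 0.0614), where its groups were nonetheless apart. The SSP-25 difference was called higher with the replicate block (adjusted p = 0.0309), SSP-25 fitted alone (0.0255), quantile normalization (0.00566) and median ratio scaling (0.0222). The HuH-28 call of TK1 was lost without LKB1 siRNA replicate 1 (adjusted p = 0.102) or control siRNA replicate 1 (adjusted p = 0.0959) of that line, without a trend (0.0556) and with HuH-28 fitted alone (0.162).

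**Figure D4:**
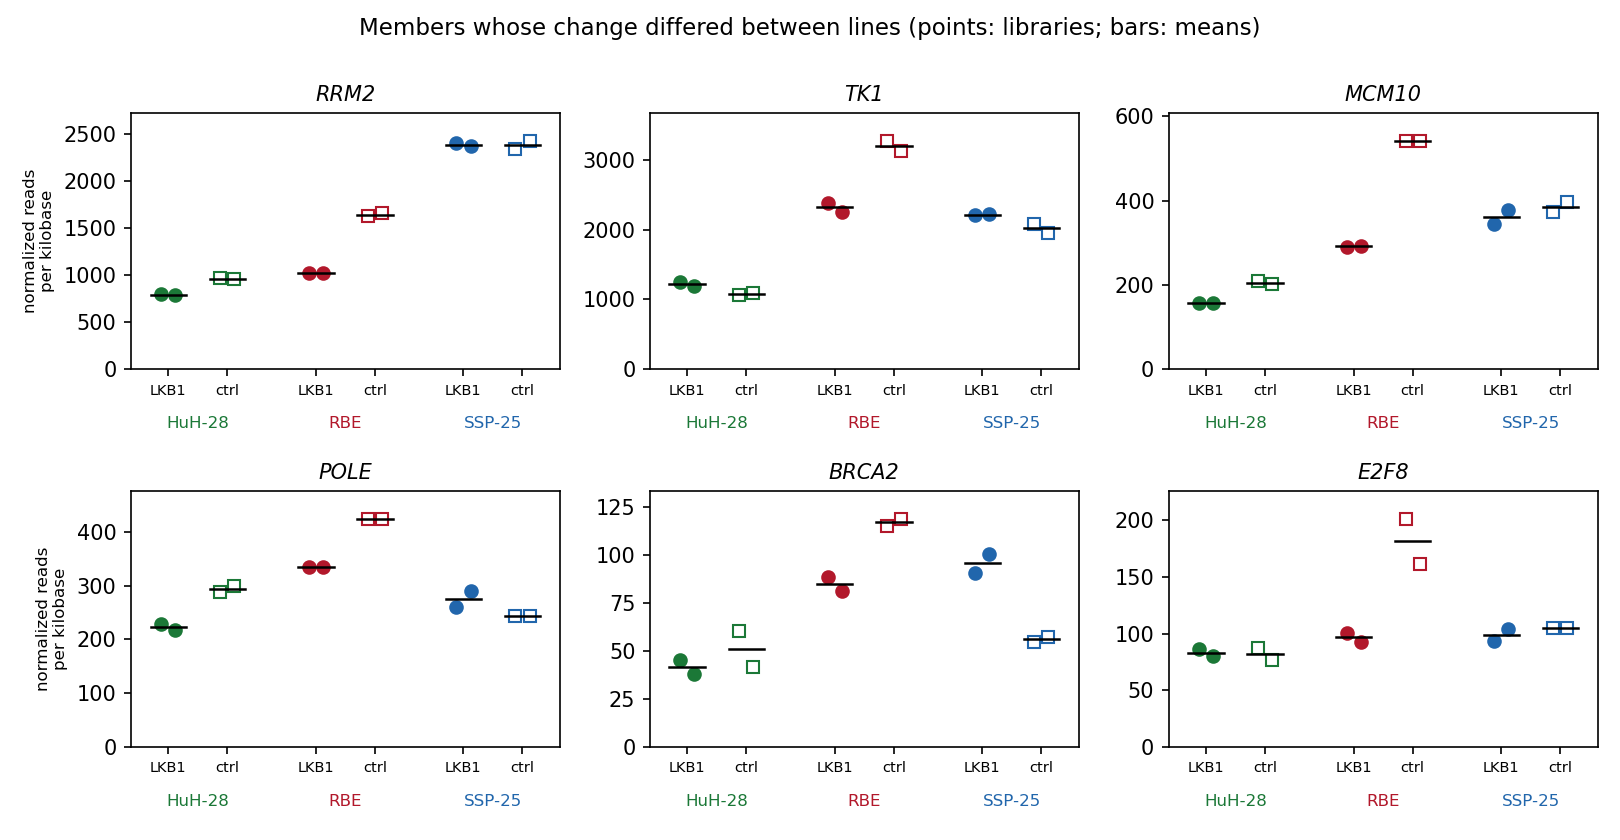
Signal (y axis, normalized reads per kilobase, from 0) of RRM2, TK1, MCM10, POLE, BRCA2 and E2F8 in every library, chosen for differences between lines. Filled circles are LKB1 siRNA, open squares control siRNA to their right, and bars are means of 2 libraries; in RBE both LKB1 siRNA libraries lie below both controls for each of the 6 genes, and in SSP-25 TK1, POLE and BRCA2 lie above theirs.

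Few calls fell on genes that copy chromatin. UHRF1, which brings DNA methylation to new strands, was lower in RBE (-0.28, SE 0.056, adjusted p = 0.00276), as was CHAF1B of the histone chaperone CAF-1 (-0.34, SE 0.075, adjusted p = 0.0052). Neither was called in HuH-28 or SSP-25, where UHRF1 measured 0.00 and 0.09 and CHAF1B -0.11 and 0.04. CHAF1A, the other CAF-1 subunit here, was called nowhere and had values of 0.09, -0.05 and 0.19 for the lines HuH-28, RBE and SSP-25. In SSP-25 CHAF1A was called higher with quantile normalization (adjusted p = 0.0325), median ratio scaling (0.0247) and SSP-25 fitted alone (0.0111), and UHRF1 with quantile normalization (0.0347).

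Checkpoint and repair genes were lower in 3 of 6 cases in HuH-28 and 5 in RBE, while in SSP-25 3 were lower and 2 higher. BRCA1, of homologous recombination, had 183 and 157 with LKB1 siRNA, against 287 and 257 with control siRNA in HuH-28. BRCA1 had 343 and 337 with LKB1 siRNA, against 554 and 543 with control siRNA in RBE. It gave 319.7 and 324 with LKB1 siRNA, against 383 and 403 with control siRNA in SSP-25. The groups were apart in every line, with -0.67 (SE 0.078, adjusted p = 0.000202) in HuH-28, -0.69 (SE 0.078, adjusted p = 8.35e-05) in RBE and, for SSP-25, -0.29 (SE 0.078, adjusted p = 0.0144). The SSP-25 call of BRCA1 was lost without LKB1 siRNA replicate 1 (adjusted p = 0.0699), LKB1 siRNA replicate 2 (0.0574) or control siRNA replicate 2 (0.0895) of that line. EXO1, an exonuclease of end resection and mismatch repair, had 238 and 228 with LKB1 siRNA, against 381 and 344 with control siRNA in HuH-28. EXO1 had 521 and 502 with LKB1 siRNA, against 776 and 742 with control siRNA in RBE. EXO1 had 465 and 493 with LKB1 siRNA, against 588 and 544 with control siRNA in SSP-25. EXO1 did not overlap between siRNAs and differed by -0.63 (SE 0.066, adjusted p = 0.000103) in HuH-28, -0.57 (SE 0.066, adjusted p = 9.64e-05) in RBE and, for SSP-25, -0.24 (SE 0.066, adjusted p = 0.015). Without SSP-25 LKB1 siRNA replicate 1 or control siRNA replicate 1 its SSP-25 adjusted p was 0.103 or 0.115.

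BRCA2, also of homologous recombination, had 45.3 and 37.9 with LKB1 siRNA, against 60.5 and 41.9 with control siRNA in HuH-28. Its values in RBE were 88.7 and 81.4 with LKB1 siRNA, against 115 and 119 with control siRNA. Its values in SSP-25 were 90.6 and 101 with LKB1 siRNA, against 54.7 and 57.4 with control siRNA. BRCA2 overlapped in HuH-28 (-0.28, SE 0.16, adjusted p = 0.237), was lower in RBE (-0.46, SE 0.16, adjusted p = 0.0451) and was higher in SSP-25 (0.76, SE 0.16, adjusted p = 0.00383). Its RBE call did not hold in any of 8 fits that left out 1 library of RBE or SSP-25, with adjusted p from 0.0603 to 0.189, and its HuH-28 difference was called without HuH-28 control siRNA replicate 2 (-0.54, adjusted p = 0.0207). BLM, the Bloom helicase, was also higher in SSP-25 (0.50, SE 0.081, adjusted p = 0.000852), and it measured 0.09 in HuH-28 and 0.02 in RBE. FANCD2, of crosslink repair, was lower in HuH-28 (-0.47) and RBE (-0.53), and CLSPN, the claspin adaptor of the replication checkpoint, in RBE (-0.47) and SSP-25 (-0.20).

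The 3 E2F members were lower wherever they were called. E2F1, an activator of S-phase genes, had 840.2 and 820.4 with LKB1 siRNA, against 1138 and 1190.0 with control siRNA in HuH-28. E2F1 had 358 and 337 with LKB1 siRNA, against 655 and 608 with control siRNA in RBE. In SSP-25 E2F1 had 319 and 326 with LKB1 siRNA, against 417 and 472 with control siRNA. The groups were apart in each line, and E2F1 differed by -0.49 (SE 0.068, adjusted p = 0.000556) in HuH-28, -0.86 (SE 0.068, adjusted p = 7.73e-06) in RBE and, for SSP-25, -0.46 (SE 0.068, adjusted p = 0.00043). E2F2, a second activator, was lower in HuH-28 (-0.44) and RBE (-0.73) and measured -0.23 in SSP-25. With quantile normalization E2F2 was called lower in SSP-25 as well (-0.43, adjusted p = 0.00967). E2F8, a repressor made in S phase, had 86.6 and 79.9 with LKB1 siRNA, against 87.6 and 76.6 with control siRNA in HuH-28. E2F8 had 101 and 92.4 with LKB1 siRNA, against 202 and 161 with control siRNA in RBE. Its signal in SSP-25 was 93.5 and 104 with LKB1 siRNA, against 105 and 105 with control siRNA. E2F8 was lower in RBE at -0.90 (SE 0.12, adjusted p = 0.000234), with 0.02 (SE 0.12, adjusted p = 0.936) in HuH-28, where the groups overlapped, and -0.09 (SE 0.12, adjusted p = 0.595) in SSP-25.

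The changes differed between lines for 24 of the 44 members by limma's F test, beside 28.2% of all genes. This count was 14 without RBE LKB1 siRNA replicate 2 and 14 without RBE control siRNA replicate 1. The smallest adjusted p values of this test belonged to RRM2 (0.000179), TK1 (0.000496) and MCM10 (0.000601). Pairs of lines were then compared by their changes, a step added after the F test was seen. The change in HuH-28 minus that in RBE was called above 0 for 16 members and below 0 for none, beside 5.79% and 8.16% of all genes. HuH-28 minus SSP-25 was called above 0 for 3 members and below 0 for 8, beside 8% and 8.83% of all genes. RBE minus SSP-25 was called below 0 for 22 members and above 0 for none, beside 8.99% and 11.2% of all genes. At an unadjusted p under 0.05 these counts of none were also 0. For E2F8 the difference in change was 0.92 (SE 0.17, adjusted p = 0.00711) for HuH-28 minus RBE and -0.81 (SE 0.17, adjusted p = 0.0095) for RBE minus SSP-25. For BRCA2 it was -1.04 (SE 0.23, adjusted p = 0.0145) for HuH-28 minus SSP-25 and -1.22 (SE 0.23, adjusted p = 0.00549) for RBE minus SSP-25. For POLA2, lower in all 3 lines, no pair was called, and RBE minus SSP-25 had a 95% interval of -0.17 to 0.31. STK11 itself differed more deeply in SSP-25, by 1.18 (SE 0.16, adjusted p = 0.00189) for HuH-28 minus SSP-25. The lowest remaining STK11 signal was in SSP-25 and the most members lower were in RBE, and a relation between these was not tested.

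Control libraries alone showed RBE at the highest level for 29 members, beside 33.6% of all genes, and in 22 of them above both other lines by test, beside 23%. HuH-28 had the lowest level for 22 members, beside 35.4% of all genes, and in 19 below both others by test, beside 22.9%. These comparisons use the same control libraries as the changes above and share them among themselves, so the values stand side by side only. HuH-28 was called below RBE for 32 members and above it for 7, beside 38.1% and 39.2% of all genes. HuH-28 was called below SSP-25 for 21 members and above it for 17, beside 36.8% and 38% of all genes. RBE was called below SSP-25 for 11 members and above it for 28, beside 37.2% and 35.9% of all genes. The count of 11 was 7 without RBE control siRNA replicate 2.

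Single members ordered the lines differently. POLA1 had 487 and 433 in the HuH-28 controls, 131 and 133 in those of RBE and 289.8 and 287 in those of SSP-25. It differed by 1.80 (SE 0.087, adjusted p = 2.05e-08) for HuH-28 minus RBE, so the catalytic subunit was highest in HuH-28 and lowest in RBE. POLA2, in contrast, had 405 and 459 in the HuH-28 controls, 873 and 828 in those of RBE and 1705 and 1609 in those of SSP-25, and differed by -1.94 (SE 0.076, adjusted p = 5.83e-09) for HuH-28 minus SSP-25. The subunits of polymerase alpha thus had opposite extremes in HuH-28, and no neighbours in either order overlapped. GINS4 had 283 and 277 in the HuH-28 controls, 978 and 965 in those of RBE and 348 and 343 in those of SSP-25. It stood far above the other lines in RBE, by 1.49 (SE 0.047, adjusted p = 1.4e-09) over SSP-25 and with -1.79 (SE 0.047, adjusted p = 2.27e-10) for HuH-28 minus RBE, although LKB1 siRNA left it uncalled there. DTL had 417 and 387 in the HuH-28 controls, 1272 and 1321 in those of RBE and 698 and 724 in those of SSP-25, a difference of -1.69 (SE 0.062, adjusted p = 2.65e-09) for HuH-28 minus RBE.

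LIG1 had 363 and 353 in the HuH-28 controls, 687 and 640.1 in those of RBE and 233 and 245 in those of SSP-25. MCM6 had 1071 and 1148 in the HuH-28 controls, 1465 and 1428 in those of RBE and 544 and 509 in those of SSP-25. Both were highest in RBE and lowest in SSP-25, with RBE minus SSP-25 at 1.47 (SE 0.061, adjusted p = 8.98e-09) for LIG1 and 1.46 (SE 0.054, adjusted p = 4.27e-09) for MCM6. RRM2 had 964 and 959 in the HuH-28 controls, 1626 and 1656 in those of RBE and 2344 and 2429 in those of SSP-25. RRM2 was highest in SSP-25, with -1.31 (SE 0.041, adjusted p = 1.21e-09) for HuH-28 minus SSP-25, and its level there overlapped between siRNAs. E2F1 had 1138 and 1190.0 in the HuH-28 controls, 655 and 608 in those of RBE and 417 and 472 in those of SSP-25, and was highest in HuH-28, by 1.39 (SE 0.068, adjusted p = 2.84e-08) over SSP-25. The line with the highest E2F1 was thus the line with the lowest control level for 22 of the members.

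**Figure D5:**
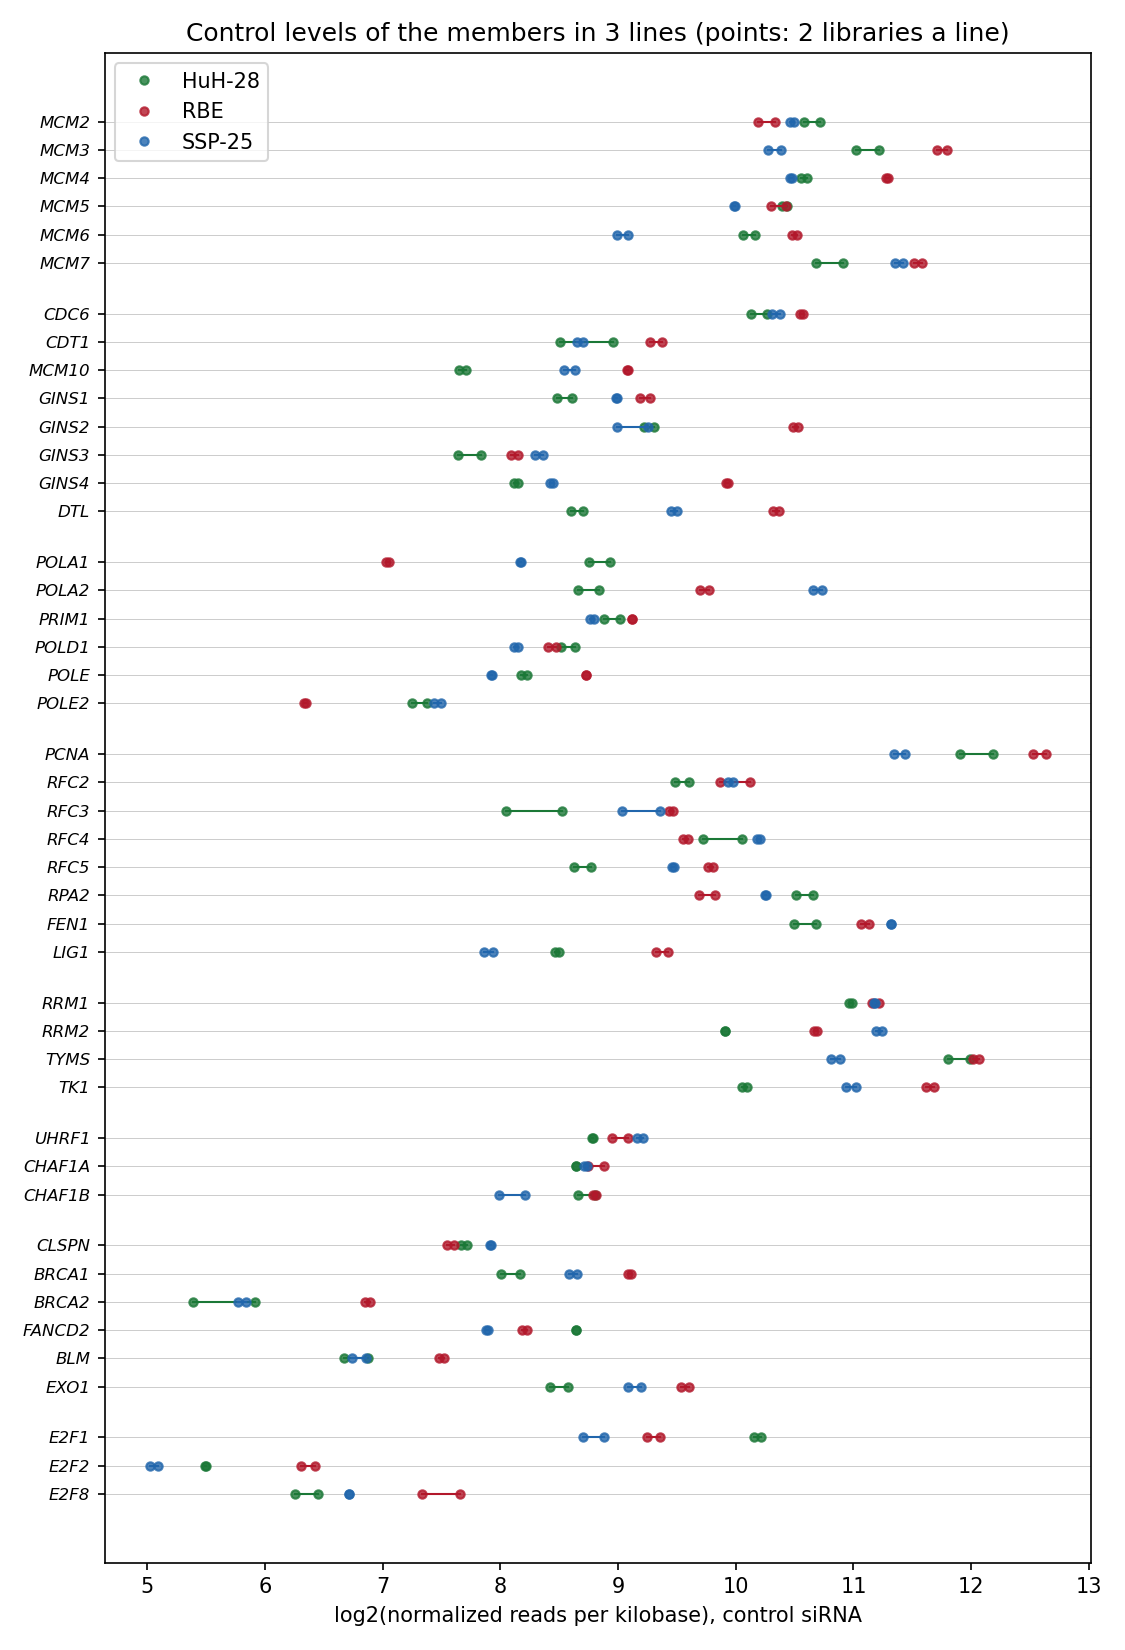
Control siRNA level of each member (x axis, log2 of normalized reads per kilobase) for the lines HuH-28, RBE and SSP-25, with both libraries of a line joined by a line. RBE has the highest mean for 29 of 44 members, while POLA1 and E2F1 are highest in HuH-28 and POLA2 and RRM2 in SSP-25.

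Related genes outside the set moved in part with it. Of 34 further replication genes, 15 were lower and 7 higher in HuH-28, 23 lower and 4 higher in RBE, and 14 lower and 8 higher in SSP-25. Their medians were -0.18, -0.33 and -0.14. The counts of this paragraph stand beside the shares over all genes given above for each line. The 8 higher in SSP-25 lay near the 21.1% of all genes higher there. The 7 higher in HuH-28 stand beside 14.3% of all genes. On average over the lines, GMNN, the geminin inhibitor of CDT1, was lower (-0.60, SE 0.030, adjusted p = 1.64e-07), while the maintenance methyltransferase DNMT1 (1.19, SE 0.035, adjusted p = 5.12e-09) and the chromatin remodeller HELLS (0.84, SE 0.037, adjusted p = 5.98e-08) were higher. DNMT1 had 834 and 803 with LKB1 siRNA, against 412 and 403 with control siRNA in RBE, so it rose with LKB1 siRNA in the line where 37 members fell. Of 19 further E2F and S-phase regulators, 12 were lower and 1 higher in HuH-28, 12 lower and 2 higher in RBE, and 5 lower and 4 higher in SSP-25. The SSP-25 counts of these regulators lay near the shares over all genes. The smallest p values on average belonged to E2F4 (-0.51), ZNF367 (-0.97) and CDC25A, the CDK-activating phosphatase (-0.45). E2F5, chosen after its values were seen, was higher in every line, at 0.45 (SE 0.11, adjusted p = 0.012) in HuH-28, 0.49 (SE 0.11, adjusted p = 0.00517) in RBE and, for SSP-25, 0.46 (SE 0.11, adjusted p = 0.00733). CCNE1, which encodes cyclin E1 and was chosen in the same way, was lower in HuH-28 (-0.35) and higher in RBE (0.29) and SSP-25 (0.42). Of 24 further S-phase repair genes, 9 were lower and none higher in HuH-28, 13 lower and 1 higher in RBE, and 8 lower and 1 higher in SSP-25. The smallest p values on average belonged to FANCI (-0.32), RAD1 (-0.43) and RAD54L (-0.41), and the lowest average difference to RMI2 (-0.58).

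Mitosis genes, which mark cells beyond S phase, were also mostly lower in HuH-28 and RBE. The counts of this and the following lists stand beside the shares over all genes given above for each line. Of 24, 19 were lower and 1 higher in HuH-28, 23 lower and none higher in RBE, and 11 lower and 4 higher in SSP-25. Their summed signal was 22882 and 22242 in RBE with LKB1 siRNA, against 40628 and 38843 with control siRNA. HuH-28 had 30114 and 30449 with LKB1 siRNA, against 39144 and 39153 with control siRNA, and SSP-25 had 44423 and 45128, against 52391 and 52612.5. The sums were apart in each line, and their part in the changes of the members was not tested. HMMR (-1.39 on average), the mitotic kinase AURKA (-0.71) and the checkpoint gene BUB1B (-0.60) had the smallest p values on average in this list. Of 7 cyclin-kinase inhibitors, 4 were lower and 1 higher in RBE, and 2 were lower in each of the other lines. The 4 in RBE include CDKN2A, which was nearly absent there. Its RBE signal was 0 and 0.507 with LKB1 siRNA, against 0.917 and 1.53 with control siRNA, so that call rests on values near 0. CDKN1A, which encodes p21, was the gene higher in RBE, at 0.82 (SE 0.066, adjusted p = 9.1e-06), chosen after its values were seen. CDKN2C (-0.55), CDKN1B (-0.33) and CDKN2D (-0.43) were lower on average. Of the 9 biliary and epithelial markers tested, 4 were higher and none lower in HuH-28, 1 was higher and 2 lower in RBE, and 5 were higher and none lower in SSP-25. In RBE KRT8 (-0.67) and KRT18 (-0.60) were lower. Summed over the list, RBE had 39866 and 39324 with LKB1 siRNA, against 51024 and 47476 with control siRNA, HuH-28 had 13242 and 13896 with LKB1 siRNA, against 9680.4 and 10538 with control siRNA, and SSP-25 had 20401 and 21324 with LKB1 siRNA, against 15063 and 15339 with control siRNA. The sums were apart in each line, lower with LKB1 siRNA in RBE and higher in the others, and their part in the changes of the members was not tested. On average SOX9 (0.48), KRT7 (0.28) and MUC1 (0.33) were higher. Of 9 markers of other cell types tested, 3 were higher and 1 lower in HuH-28, 1 was higher and none lower in RBE, and 1 was higher and 1 lower in SSP-25. COL1A1 was higher on average (0.58), and APOA1 (-1.04, adjusted p = 0.125) and CD68 (-0.09, adjusted p = 0.272) were not called.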

How the data were processed

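RNA from 3 ICC lines was sequenced 48 h after LKB1 or control siRNA, with 2 libraries in each of 6 groups taken from the labels. The authors deposited normalized reads per kilobase, used as a signal. NextGENe with RefSeq mRNA on an older build is named in their methods, and TopHat 1.2.0, edgeR and hg19 in the submitters' processing notes. The tool behind this table is unclear from these sources. Depth is unknown, so no counting interval is given.

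Of 18815 rows, 23 repeated rows were dropped and 10 shared a symbol. Values were fitted as log2(signal + 0.5) with limma 3.58.1 in R 4.3.3, with a mean per group, 6 residual degrees of freedom and eBayes with a trend. Tests were adjusted by Benjamini-Hochberg over the 16146 genes that reached a signal of 1 in 2 or more libraries. The pseudocount makes fold changes of low genes too small. Calls needed an adjusted p under 0.05, and a log2 change above 1 was counted apart. LKB1 siRNA was compared with control siRNA by line and on average, the changes were compared between lines by an F test, and control levels were compared between lines. Replicate numbers mark separate tests in the study's text and so pair the libraries of a line. Deviations of same-numbered libraries from their group means correlated at 0.43 in HuH-28, at 0.0023 in RBE and at 0.033 in SSP-25. Over the members alone these were 0.79, -0.068 and 0.22. The members' root mean square log2 difference between the 2 libraries of a group was 0.16 with LKB1 siRNA and 0.18 with control siRNA in HuH-28. It lay between 0.083 and 0.099 in the groups of RBE and SSP-25, while the fit gave each gene the same SE in every line. Fitting each line alone used the spread of that line only. SSP-25 then had 23 members lower, RBE had 37 and HuH-28 had 10. Such fits also rest on fewer libraries, so the part of the spread by itself was not tested. The study's methods name no block, so the block was an alternative. Contrasts of changes between pairs of lines were added after the data were seen. The fit was tested on simulated data.

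Values in every library are given for STK11, members called the same way in all 3 lines or in opposite directions, the 3 largest calls in each line and each comparison of control levels, and the 3 smallest p values of the F test. From each related list, up to 3 genes with the smallest p on average are named. Members and lists were chosen with earlier results of these data known. Promoters are those of RefSeq on GRCh38.p14, searched with Python 3.11.15. Other pseudocounts, filters, scalings and thresholds were tried, as were fits without a trend or by line, a replicate block, and leaving out each library or line.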

Additional observations from a re-analysis of the deposited data

Results flagged for a closer look

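Each result here is a member whose change with LKB1 siRNA differed between the lines by limma's moderated F test, adjusted over all genes tested. The adjusted p was 0.000179 for RRM2, 0.000496 for TK1, 0.000601 for MCM10, 0.00234 for POLE, 0.00323 for MCM6, 0.00439 for GINS3, 0.00521 for RRM1, 0.00533 for MCM5, 0.0063 for E2F8, 0.00668 for GINS1, 0.00713 for BRCA2, 0.00827 for POLA1. For the other 12 it was 0.0139 for FANCD2, 0.016 for UHRF1, 0.0181 for MCM7, 0.0187 for E2F1, 0.0198 for MCM4, 0.022 for EXO1, 0.0221 for TYMS, 0.0232 for BLM, 0.0235 for CLSPN, 0.0236 for LIG1, 0.0327 for CDC6 and 0.0328 for BRCA1. RRM2 (-0.69 in RBE, 0.00 in SSP-25), TK1 (-0.46 in RBE, 0.18 in HuH-28) and MCM10 (-0.89 in RBE, -0.09 in SSP-25) had the smallest values, each with its lowest log2 difference in RBE. Of the 44 members, 34 had their lowest log2 difference in RBE, beside 30.3% of all genes tested.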

How the results depend on the processing

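Counts of members called stayed within 1.5 times their values above in 349 of the 386 recomputed counts, and the rest are given here. With each line fitted alone, 10 members were lower and 0 higher in HuH-28, and without a trend 0 were higher there. Members higher on average numbered 2 with quantile normalization, 2 with median ratio scaling, 4 without RBE and 0 without SSP-25, and quantile normalization left 7 members lower in RBE than in SSP-25. At an adjusted p under 0.01, 0 members were higher in HuH-28, 12 were lower and 2 higher in SSP-25, and 12 differed between lines. With a log2 difference above 1 as well, 0 members were called in either direction by line or on average. Between control levels 11 of 44 were then lower and 1 higher in HuH-28 than in RBE. For HuH-28 against SSP-25, 2 were lower and 3 higher, and for RBE against SSP-25, 2 lower and 9 higher. Of the 16146 genes tested, 3180 were lower and 3586 higher in the first comparison. In the second 2809 and 3334 were, and in the third 2991 and 3054.

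Leaving out 1 library at a time gave 13 to 19 members lower and 0 to 2 higher in HuH-28, 30 to 37 lower and 0 higher in RBE, 12 to 21 lower and 2 to 5 higher in SSP-25, and 31 to 35 lower and 1 to 2 higher on average. The F test called 14 to 27. Between control levels, 30 to 32 were lower and 6 to 7 higher in HuH-28 than in RBE, 18 to 21 lower and 14 to 17 higher in HuH-28 than in SSP-25, and 7 to 11 lower and 27 to 29 higher in RBE than in SSP-25. In these fits a lone library is assumed to vary like the other groups.

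A replicate block within each line gave 20 members lower and 1 higher in HuH-28, 38 lower and 0 higher in RBE, 23 lower and 5 higher in SSP-25, 35 lower and 2 higher on average, and 35 that differed between lines; beside the calls given with the genes above it changed those of CDC6 (adjusted p = 0.0306), PCNA (0.00712) and RFC3 (0.000662) on average, and no other call of a member in or over the lines. A replicate block across lines gave 16 and 1, 37 and 0, 19 and 3, and 34 and 1, with 25 that differed.

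Other calls of single members ended under a setting. They were FEN1 in HuH-28 (adjusted p = 0.0657 with median ratio scaling, 0.0829 without a trend and 0.217 with HuH-28 fitted alone), MCM6 in HuH-28 (0.0558 without a trend), E2F2 in HuH-28 (0.0753 with that line alone), RFC2 (0.0551) and POLE (0.0576) in SSP-25 with quantile normalization, POLE there without a trend (0.0652) or with SSP-25 alone (0.0571), and CLSPN in SSP-25 with median ratio scaling (0.0661). Without a trend the RBE calls of PRIM1 (0.062), RFC3 (0.0804) and BRCA2 (0.066) ended, and with median ratio scaling that of BRCA2 (0.0505).

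The sign turned for differences that had no call in the main results. On average over the lines BRCA2 was -0.062 with quantile normalization and -0.37 without SSP-25, and ranged between -0.079 and 0.096 in fits without 1 library. In fits without 1 library E2F8 ranged between -0.075 and 0.12 in HuH-28, GINS4 between -0.029 and 0.047 in RBE and RRM2 between -0.024 and 0.027 in SSP-25. For HuH-28 minus SSP-25 control levels CDT1 then ranged between -0.17 and 0.28 and BRCA2 between -0.42 and 0.11. Without RBE the average of POLA1 was 0.13 and that of TK1 0.16. The causes of these changes were not tested. With 2 libraries a group and unknown depth, small differences are least certain for members with wide errors, such as RFC3 (SE 0.19 in each line) and BRCA2 (0.16).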
